A study of Mus musculus with 12 samples.

Results

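The synaptojanins and the proteins that work beside them at the endocytic membrane were followed in injured spinal cord of ApoE4 mice, as 10 genes named by function: SYNJ1 and SYNJ2, the endophilins SH3GL1, SH3GL2 and SH3GL3, the dynamins DNM1 and DNM3, the amphiphysins AMPH and BIN1, and the scaffold ITSN1. All 10 were found among the 13957 gene symbols of the expression table. Of these, 9 of 13647 gene rows were listed above the lesion and 8 of 12338 below it. SYNJ2 and BIN1 had a row only above the lesion and ITSN1 only below it, and the other 7 genes had a row at both sites.

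The tissue came from male mice expressing human ApoE4, operated on at 4 months of age with a contusion at thoracic vertebra 9 and sampled 14 days later. Cord next to the lesion epicenter was taken on its rostral side (above) and its caudal side (below) from mice with both Synj1 alleles working (synj1+/+) or with 1 inactive allele (synj1+/-), giving 4 groups of 3 libraries. The study lists 3 mice of each genotype for sequencing, so both sites may come from the same mice. Likeness between the sites may therefore not be an independent repeat. Every group carried ApoE4 and a contusion. Uninjured cord and ApoE3 cord were not analysed here, and the inactive allele was present in the whole animal, not in a chosen cell type. The table gives 1 value per gene and group, which combines the 3 libraries. The spread between mice therefore cannot be computed, no test was made, and every difference below compares 2 combined values.

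Synaptojanin 1 is a lipid phosphatase of nerve terminals that removes phosphates from PIP2, the membrane lipid that holds the clathrin coat and its adaptors on a forming vesicle. Endophilins and amphiphysins bend the membrane at the neck of the bud and bring in dynamin, a GTPase that cuts the neck, and synaptojanin, whose action lets the coat come off. In neurons this sequence retrieves synaptic vesicle membrane after transmitter release. Synaptojanin 2, endophilin A2 (SH3GL1) and BIN1 are found in many tissues, whereas DNM1, SH3GL2 and AMPH are known for their high level in brain.

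SYNJ1, the gene that carries the inactive allele, stood higher at both sites in tissue labelled synj1+/-, which is against that label. Values are given as FPKM + 1, a read count per length of transcript scaled by the authors, so that levels can be set side by side between genes. Above the lesion SYNJ1 had a value of 1905 in synj1+/+ labelled tissue and 2404 in synj1+/- labelled tissue, a ratio of 1.26-fold or 0.34 on the log2 scale. Below the lesion the values were 1847 and 2593, a ratio of 1.40-fold or 0.49 on the log2 scale. The group labelled synj1+/- was thus the higher of the pair on each side of the lesion. The sites may share mice, so they may not be independent repeats. Directions are given by the labels as they stand. By the study's methods, the mice were genotyped by PCR. The study also measured synj1 mRNA by RT-qPCR in cord just above the lesion, a measurement not compared here. The table does not separate reads of the working allele from reads of the inactive one, which would be counted as SYNJ1 wherever they were transcribed. A table of combined values cannot show whether each mouse of a group followed its group.

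The size of the SYNJ1 difference was read against all other genes at the same site. A ratio 25% higher or 20% lower, which is 0.32 in size on the log2 scale, was taken as the fold limit in either direction. Above the lesion 4.18% of all genes were at least 25% higher in synj1+/- labelled tissue and 7.45% were at least 20% lower. SYNJ1 ranked 512 of 13647 by its log2 ratio there. Low values scatter more, and among the 244 genes with a mean of at least 1000, a limit set after the values were seen, SYNJ1 was the 1 gene at least 25% higher, or 0.41%, with 6 genes, or 2.46%, at least 20% lower. Among the 6696 genes with a mean at least that of the lowest member, the shares were 1.91% higher and 4.27% lower. Below the lesion 8.06% of all genes were at least 25% higher and 11.5% at least 20% lower, and SYNJ1 ranked 273 of 12338. Of the 5839 genes with a mean at least that of the lowest member there, 6.25% were higher and 7.11% lower by the same limit. There, 15 of the 178 genes with a mean of at least 1000, or 8.43%, were at least 25% higher and 5.06% at least 20% lower. Above the lesion SYNJ1 passed the fold limit only narrowly, at 1.26-fold. Since the mean of 1000 was chosen after the values were seen, no contrast between the sites is drawn from it.

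**Figure D1:**
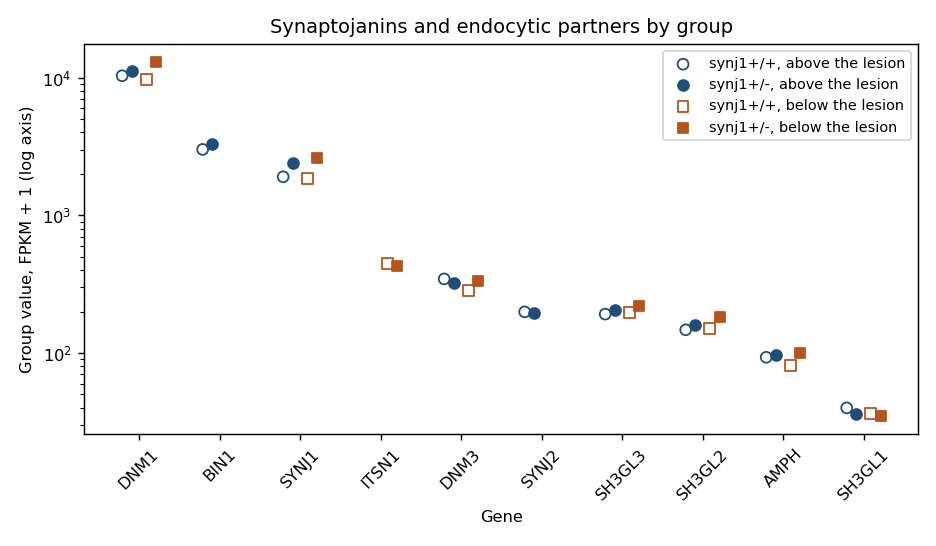
Group value of each gene on a log axis in FPKM + 1, with circles for tissue above and squares for tissue below the lesion, open for synj1+/+ labelled tissue and filled for synj1+/- labelled tissue. DNM1 lies highest, between 9760 and 13066, SH3GL1 lowest, between 34.9 and 39.9, and the filled SYNJ1 symbols lie above the open ones at both sites.

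SYNJ1 lies on chromosome 16 of GRCm38.p6 from 90936092 to 91013727 in the RefSeq annotation, with 12 transcripts in GENCODE, 8 of them coding. The long noncoding RNA gene 4930404I05RIK overlaps its 5′ end from 91011249 to 91016503 on the other strand. The library kit does not mark strand, so reads in the overlap cannot be assigned to either gene, and their part in the SYNJ1 values was not tested. The table lists 4930404I05RIK at 7.15 and 8.20 above the lesion and 7.95 and 8.58 below it, in the order synj1+/+ and synj1+/-. ITSN1 lies on the same chromosome from 91729310 to 91920591, 716 kb from SYNJ1. Of the other genes between the start of SYNJ1 and the start of ITSN1, a set chosen after values were seen, 13 were listed above the lesion, and 0 of them reached the fold limit in either direction. Below the lesion 17 were listed, 1 was at least 25% higher and 3 at least 20% lower, and the median log2 ratio was -0.05. Among all genes the same limits were passed by 4.18% (higher) and 7.45% (lower) above the lesion, and by 8.06% and 11.5% on the other side.

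The RefSeq sequence before the start site is shown for SYNJ1 and for DNM1, since these were the genes of the set that reached the fold limit. Each run is the 250 bases upstream on the minus strand of GRCm38.p6, at chr16:91011309-91011558 for the more upstream of the SYNJ1 starts in the table and at chr2:32353330-32353579 for DNM1, 5′ to 3′.
SYNJ1: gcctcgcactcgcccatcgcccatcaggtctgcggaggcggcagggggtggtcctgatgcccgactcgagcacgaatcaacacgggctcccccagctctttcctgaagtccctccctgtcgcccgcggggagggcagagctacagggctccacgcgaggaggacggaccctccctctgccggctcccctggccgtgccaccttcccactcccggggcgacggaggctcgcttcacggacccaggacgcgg
DNM1: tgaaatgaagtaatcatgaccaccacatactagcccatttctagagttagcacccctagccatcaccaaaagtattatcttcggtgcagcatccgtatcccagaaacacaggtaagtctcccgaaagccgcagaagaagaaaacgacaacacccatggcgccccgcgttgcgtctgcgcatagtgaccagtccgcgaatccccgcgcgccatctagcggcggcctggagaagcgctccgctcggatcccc
The windows were searched on either strand for the TATA box letters TATAAA, for the box written CCAAT, for the GC box letters GGGCGG, for the cAMP response element letters TGACGTCA and for TTCAGCACC, a core of the neuronal repressor element RE1. Neither window holds any of these letters, so no base is in capitals. Both SYNJ1 windows lie inside the RefSeq span of the gene, which reaches further upstream. The printed windows are rich in CG dinucleotides, with 24 for SYNJ1 and 20 for DNM1, against a median of 6 over 32851 windows of the same length. The window of the other SYNJ1 start holds 30 CG dinucleotides and 4 GC boxes, and 32.7% of all windows hold at least 1 GC box. Among the other members with a window, SH3GL2 holds a cAMP response element, which 1.55% of all windows do, beside 2 GC boxes, and ITSN1 holds 5 GC boxes. These matches describe letters only.

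SYNJ2, which shares the phosphatase domains of SYNJ1, was much lower and nearly level between the groups. Above the lesion its values were 199 and 194, a log2 ratio of -0.04. SYNJ1 exceeded SYNJ2 by 9.57-fold in synj1+/+ labelled tissue and 12.4-fold in synj1+/- labelled tissue, so SYNJ1 made up 90.5% and 92.5% of the summed synaptojanin value. The other proteins that remove phosphates from inositol lipids were taken as a list of 11 five-position and SAC-domain phosphatases. Of these, 11 were listed above and 9 below the lesion, and their median log2 ratios were 0.04 and 0.06, beside 0.00 and 0.01 for all genes. INPP5D (SHIP1), a phosphatase of blood-derived cells and microglia, was the 1 gene of the list past the fold limit at either site. It was lower in synj1+/- labelled tissue above the lesion, at 152 and 97.9 with a log2 ratio of -0.63, and below it, at 169 and 132 with a log2 ratio of -0.36. INPPL1 above the lesion, at 139 and 115, and SACM1L below it, at 79.6 and 96.5, came next in size.

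The dynamins were dominated by DNM1, the neuronal form. Its value above the lesion was 10327 in synj1+/+ labelled tissue and 11207 in synj1+/- labelled tissue, a log2 ratio of 0.12. Below the lesion it was 9760 and 13066, a log2 ratio of 0.42 or 1.34-fold, and the latter value was the highest of all 12338 rows there. DNM1 was thus past the fold limit below the lesion and not above it. DNM3, another neuronal form, had values of 345 and 321 above the lesion, a log2 ratio of -0.10, and of 283 and 331 below it, a log2 ratio of 0.23. The direction of DNM3 therefore differed between the sites, with both ratios short of the fold limit. DNM1 exceeded DNM3 by 29.9-fold to 39.5-fold across the 4 groups.

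DNM2, the dynamin of most cell types and no member of the set, was listed above the lesion only. Its values were 1134 in synj1+/+ labelled tissue and 891 in synj1+/- labelled tissue, a log2 ratio of -0.35, so that it was lower where DNM1 was slightly higher. DNM1 accordingly made up 87.5% of the summed value of the 3 dynamins in synj1+/+ labelled tissue and 90.2% in synj1+/- labelled tissue, while DNM2 made up 9.60% and 7.18%.

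Among the endophilins, the forms known from brain and the widely expressed form lay on opposite sides of 0. SH3GL2 (endophilin A1), the main brain form, had values of 147 and 160 above the lesion and 150 and 184 below it, with log2 ratios of 0.12 and 0.30. SH3GL3 (endophilin A3) had values of 192 and 204 above and 198 and 218 below, with log2 ratios of 0.09 and 0.14. SH3GL1 (endophilin A2) was the least abundant gene of the set, with values of 39.9 and 35.9 above and 36.6 and 34.9 below, and log2 ratios of -0.15 and -0.07. None of the 3 reached the fold limit at a site, although SH3GL2 came close below the lesion with 1.23-fold. Of the summed endophilin value, SH3GL3 made up 49.9% to 51.4%, SH3GL2 38.9% to 42.1% and SH3GL1 7.99% to 10.5% across the 4 groups.

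AMPH (amphiphysin), which links dynamin and synaptojanin to clathrin coats at nerve terminals, had values of 93.1 and 96.8 above the lesion, a log2 ratio of 0.06. Below the lesion they were 81.4 and 99.2, a log2 ratio of 0.29 or 1.22-fold, just short of the fold limit. BIN1 (amphiphysin 2), which in the nervous system is also found in oligodendrocytes, had values of 3012 and 3296 above the lesion, a log2 ratio of 0.13. It was the second gene of the set in level there, 32.3-fold to 34.0-fold above AMPH. ITSN1 (intersectin 1), a scaffold that gathers dynamin and synaptojanin at the coated pit, had values of 447 and 430 below the lesion, a log2 ratio of -0.06. The level of SYNJ1 relative to ITSN1 below the lesion was 4.13-fold in synj1+/+ labelled tissue and 6.03-fold in synj1+/- labelled tissue. ITSN2, the paralog outside the set, had log2 ratios of -0.14 above and 0.03 below.

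**Figure D2:**
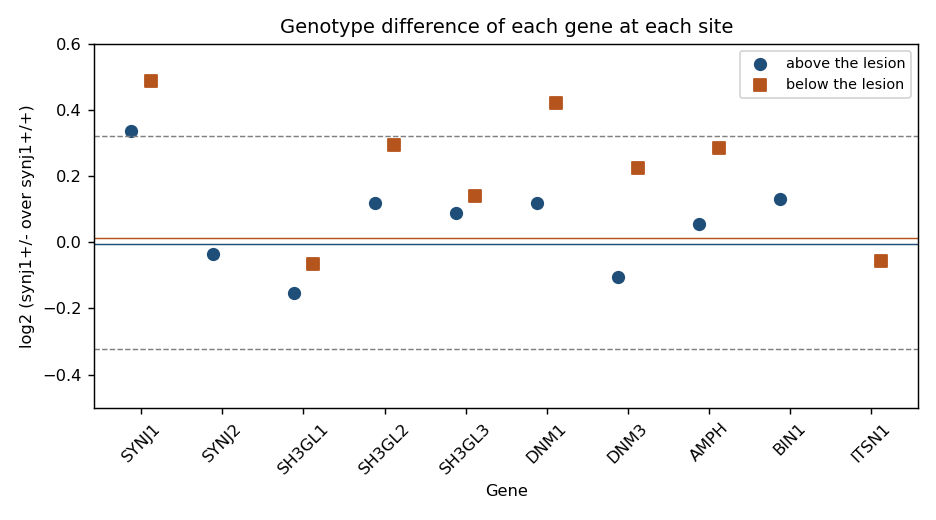
log2 ratio, synj1+/- labelled tissue over synj1+/+ labelled tissue, for each gene, with circles above and squares below the lesion, dashed lines at the fold limit and thin lines at the median of all genes of each site. SYNJ1 passes the upper dashed line at both sites and DNM1 below the lesion only, and no gene passes the lower one.

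Counted over the set, 1 of 9 genes above the lesion (SYNJ1) and 2 of 8 below it (SYNJ1 and DNM1) were at least 25% higher in synj1+/- labelled tissue, and 0 were at least 20% lower at either site. The shares of all genes at least 25% higher were the 4.18% and 8.06% given above, and those at least 20% lower were 7.45% and 11.5%. The median log2 ratio of the listed members was 0.09 above and 0.26 below the lesion. In direction alone, 6 of 9 above and 6 of 8 below were higher in synj1+/- labelled tissue, where 49% and 52.8% of all genes were. The genes on the lower side were SYNJ2, SH3GL1 and DNM3 above the lesion and SH3GL1 and ITSN1 below it. Apart from SYNJ1 itself, the differences above the lesion ran from -0.15 to 0.13 on the log2 scale, and those below it from -0.07 to 0.42.

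All 7 genes listed at both sites had the larger log2 ratio below the lesion, as did 53.9% of the 12023 genes compared. The shift was not particular to the set. Every neuron marker listed at both sites also had the larger ratio below, except GAP43, with 0.03 above and -0.01 below. Each difference is the log2 ratio below minus that above, and was 0.33 for DNM3, 0.30 for DNM1, 0.23 for AMPH, 0.18 for SH3GL2, 0.15 for SYNJ1, 0.09 for SH3GL1 and 0.05 for SH3GL3. DNM3, DNM1 and AMPH had the larger shifts, and SH3GL1 and SH3GL3 the smaller. The median was 0.18, beside 0.02 for all genes. Only DNM3 exceeded the fold limit in this difference, a size that 9.99% of all genes reached. The difference between the sites was not tested, since there is 1 value per group.

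**Figure D3:**
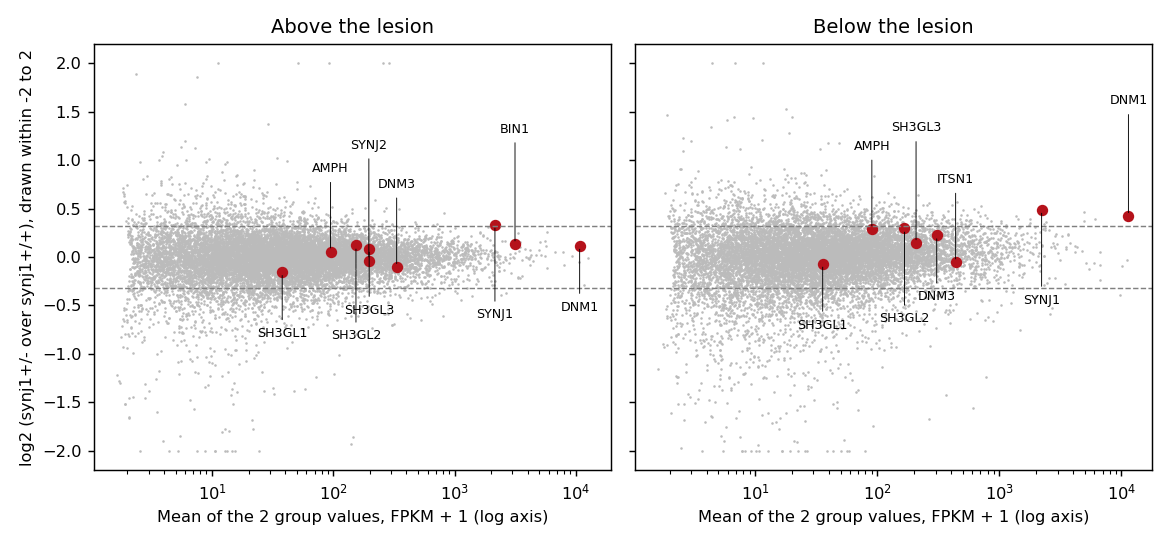
log2 ratio, synj1+/- labelled tissue over synj1+/+ labelled tissue, against the mean of both group values in FPKM + 1 (log axis), in grey for all genes and in red for the synaptojanins and their partners, with ratios beyond 2 drawn at the edge and dashed lines at the fold limit. The grey cloud narrows as the level rises and is wider below the lesion. Above the lesion SYNJ1 is the only gene with a mean of at least 1000 past the upper dashed line. That mean was chosen after the values were seen.

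The same values were read along the cord, below over above the lesion within a genotype. The libraries of each site were scaled apart by the authors, so each log2 ratio is given after the median over the 12023 genes listed at both sites was subtracted. In synj1+/+ labelled tissue, DNM3 and AMPH had the lowest site ratios, at -0.29 and -0.19, SYNJ1 stood at -0.04 and DNM1 at -0.08. In synj1+/- labelled tissue, DNM1 had a site ratio of 0.20, SH3GL2 of 0.18, SYNJ1 of 0.09 and AMPH of 0.01. The members' median was -0.08 in the first pair and 0.08 in the second. No member reached the fold limit between the sites in either genotype. Of all genes, 10.2% were at least 25% higher and 7.77% at least 20% lower below the lesion in synj1+/+ labelled tissue, and 5.66% and 5.21% in synj1+/- labelled tissue.

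The wider endocytic machinery was read from lists of genes, against the same shares of all genes past the fold limit, which were 4.18% higher and 7.45% lower above the lesion and 8.06% and 11.5% below it. Of 30 genes for the clathrin coat, its adaptors and its uncoating, 29 were listed above the lesion, where 1 was at least 25% higher and 2 at least 20% lower, with a median log2 ratio of 0.00. Below the lesion 18 were listed, 1 higher and 1 lower by that measure, with a median of 0.13. These counts are near the shares of all genes. STON1, a stonin that recruits cargo to the adaptor AP-2, was lower in synj1+/- labelled tissue at both sites, at 27.0 and 20.1 above and 23.6 and 14.8 below. EPN3, an epsin, went from 11.6 to 8.76 above and from 9.54 to 12.8 below, so its direction turned between the sites at a low level. FCHO1, an early factor of coated pits, was the 1 gene of the list higher above the lesion, at 113 and 145, and is named after its value was seen.

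Other membrane-bending and scission proteins had medians below 0. Of 24 such genes, all 24 were listed above and 18 below the lesion. At least 20% lower in synj1+/- labelled tissue were 3 above the lesion and 2 below it, 0 were higher by that measure, and the median log2 ratios were -0.06 and -0.13. The lower genes below the lesion, 2 of 18, are near the 11.5% of all genes, and those above, 3 of 24, compare with 7.45%. ARHGAP10, a GTPase-activating protein with a membrane-bending domain, had values of 21.5 and 15.4 above and 29.8 and 21.5 below. TRIP10, a membrane-bending partner of Cdc42, had values of 24.5 and 19.3 above and 31.8 and 23.2 below. The third gene above the lesion was DNM2, described beside the dynamins.

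The kinases that make PIP2 and its precursor act against synaptojanin. All 11 of the list were listed above the lesion, with 0 past the fold limit and a median log2 ratio of 0.01. The shares of all genes past that limit were 4.18% higher and 7.45% lower above the lesion, and 8.06% and 11.5% below it. Below the lesion 10 were listed, with 1 higher (PIP5K1B, at 7.16 and 9.27), 1 lower (PI4K2B, at 7.63 and 5.21) and a median of 0.09. Both of these were at low levels and are named after their values were seen. PIP5K1C, known as the main PIP2-making kinase of nerve terminals, had values of 491 and 513 above and 487 and 584 below, with log2 ratios of 0.06 and 0.26. PI4KA, which makes the precursor of PIP2 at the plasma membrane, had the largest difference above the lesion among kinases with a mean of at least 10, at 106 and 125. PI4KB came next there, at 54.3 and 62.7. Below the lesion PIP4K2B, at 39.6 and 47.4, had a log2 ratio of 0.26, like that of PIP5K1C.

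Markers of cell types also differed between the groups, and in bulk tissue fewer cells of a type and less RNA per cell cannot be told apart. Neuron markers, with defining genes such as RBFOX3, SNAP25 and SYT1 among them, had a median log2 ratio of 0.04 above the lesion over 16 of 18 listed genes, with 0 past the fold limit, and summed to 12252 in synj1+/+ labelled tissue and 13622 in synj1+/- labelled tissue. Below the lesion the median was 0.19 over 13 listed genes, with 4 at least 25% higher, and the sums were 10062 and 12474. Of all genes, 4.18% above the lesion and 8.06% below it were at least 25% higher. The largest neuron marker ratios were 0.26 above the lesion, for RBFOX3, which had no row below, and 0.54 below it, for SYT1. SYNJ1 with 0.34 lay outside the neuron markers above the lesion. Below it SYNJ1, with 0.49, exceeded every listed neuron marker but SYT1, so its place within their range rests on that 1 gene. DNM1 with 0.12 and 0.42 lay within their range at both sites. The part of neuronal RNA in these differences was not tested.

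Microglia and macrophage markers were lower in synj1+/- labelled tissue. Above the lesion 8 of 12 were at least 20% lower, with sums of 1954 and 1402, and below it 7 of 9, with sums of 1993 and 1319. Of all genes, 7.45% above the lesion and 11.5% below it were at least 20% lower. Astrocyte markers had median log2 ratios of -0.21 and -0.17 over 8 genes, with 0 and 2 at least 20% lower, and oligodendrocyte markers of -0.08 over 7 and 0.02 over 6 genes. Fibroblast markers summed to 111 and 97.3 above and to 449 and 123 below the lesion, with 5 and 6 of 7 genes at least 20% lower. The 5 lower genes above the lesion had means under 10, and the list's median there turned from -0.49 to 0.039 when only genes with a mean of at least 10 were kept. Endothelial markers had medians of 0.07 and -0.14 over 6 genes. Erythroid markers had medians of 2.17 and 0.37 over 5 genes, and above the lesion they summed to 253 and 1138. The scale has a floor of 1, and the lowest listed marker value was near it, at 1.73 for COL3A1 above the lesion in synj1+/- labelled tissue. The part of these cells in the values of SH3GL1, SYNJ2, BIN1 and the other members was not tested.

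**Figure D4:**
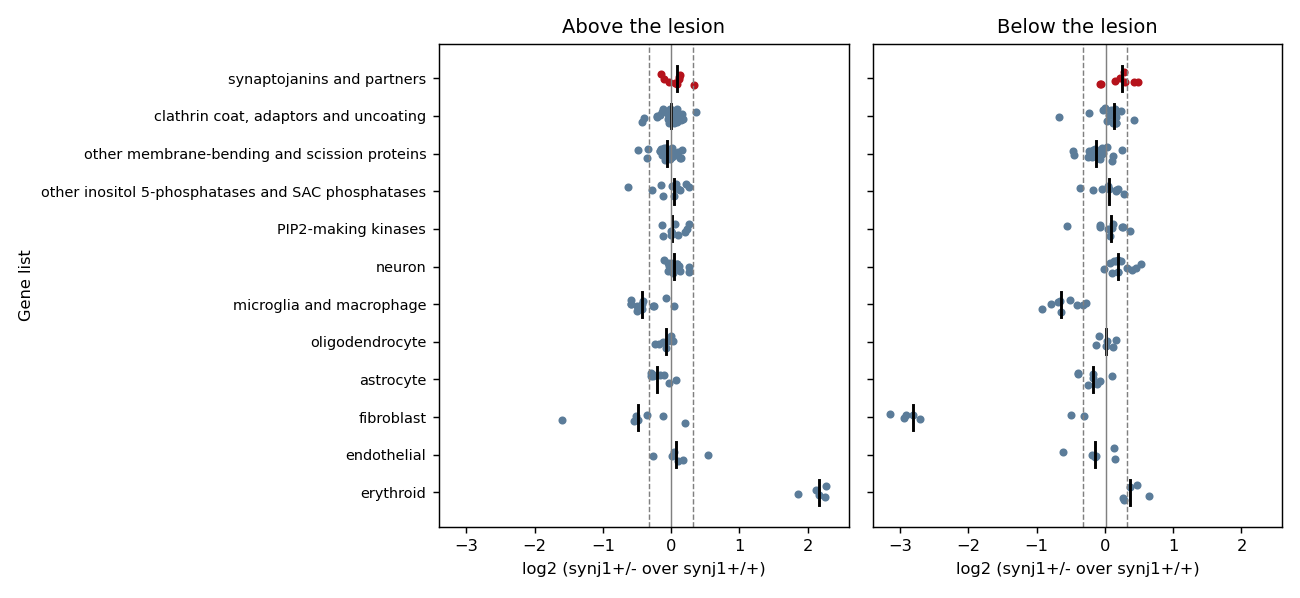
log2 ratio, synj1+/- labelled tissue over synj1+/+ labelled tissue, for each gene (points) of the synaptojanin set, the endocytic and lipid lists and the cell type marker lists, with a black bar at each median, dashed lines at the fold limit and a grey line at the median of all genes. Below the lesion the medians of the synaptojanin set, at 0.26, and the neuron markers, at 0.19, lie to the right, and those of microglia and macrophage markers, at -0.64, and fibroblast markers, at -2.81, to the left.

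The genes with the pair of genotype ratios most like that of SYNJ1 were found by the distance between the log2 ratios above and below the lesion, among genes with a value of at least 100 in all 4 groups. Of the 5 nearest, RALYL, an RNA-binding protein, lay at a distance of 0.035 on the log2 scale. SST (somatostatin, a neuropeptide) and HOXB8 (a homeobox gene of the trunk cord) lay at 0.053 and 0.054. PRRT2 (a presynaptic membrane protein) lay at 0.063 and DOC2A (a calcium sensor of transmitter release) at 0.068. RALYL had values of 632 and 801 above and 579 and 833 below the lesion, close to SYNJ1 in both ratios. SST had values of 268 and 337 above and 195 and 284 below. The likeness rests on 2 ratios per gene. Members not listed at both sites (SYNJ2, BIN1 and ITSN1) or with values under 100 (AMPH and SH3GL1) could not enter this search. DNM1, DNM3, SH3GL2 and SH3GL3 could enter it and were not among these 5.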

How the data were processed

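RNA from 12 libraries in 4 groups of 3 was sequenced. The authors reduced the libraries of each site at random to the smallest read number, aligned them with STAR and bowtie2, and computed group values with cufflinks and upper quartile normalization. The submitters' processing notes give STAR 2.5.4b, Cuffdiff 1.3.0 and GRCm38.p6. The deposited values were read as FPKM with 1 added, because the lowest is exactly 1, and each combines the libraries of a group. The upper quartile sets their scale, and reads behind single libraries are not given in the table. Its fold change, log2 fold change, p-value, q-value and significance columns, and a shorter list of the same kind, hold the authors' comparisons and were not used.

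From the values, log2 ratios were computed (Python 3.11.15, numpy 2.4.6, pandas 2.3.3, matplotlib 3.10.9) with no filter and no added offset, and counted past a fold limit of 25% higher or 20% lower. Symbols found on 2 rows of a site, 3 in all, were left out of comparisons between sites. Counting was tested on simulated data with 200 changed genes. The members and lists were chosen with earlier results of these data known. The genes named were the members, in each list those past the fold limit alike at both sites and the 2 largest per site with a mean of at least 10, the 5 nearest to SYNJ1, and the paralogs DNM2 and ITSN2. Alternatives changed the offset, the scaling, the fold and the filter on low values. Promoter windows came from RefSeq (GRCm38.p6), with BIN1 not reported there, and transcripts from GENCODE M21. One further marker list is not reported here.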

Additional observations from a re-analysis of the deposited data

How the results depend on the processing

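Each of the 17 genotype log2 ratios of members was recomputed under 4 alternatives, 68 values in all, with a largest shift of 0.03. These were the offset of 1 taken off, 10 added, and centring on the median or the upper quartile. All signs were kept, but this was fixed in advance. A changed offset cannot turn a sign, and the centring shifts were smaller in size than every member ratio. The medians over members at each site and between sites moved by less than 0.1 under every alternative. The fold limit decided the counts. At 1.5-fold, 0 members were higher above the lesion and 0 below it, where 0.791% and 1.16% of all genes were. At 1.2-fold 4 members were higher below the lesion, but the share of all genes at that fold was not computed. The share of all genes past the fold also moved with the filter: at a mean of at least that of the lowest member it was 1.91% higher and 4.27% lower above the lesion. The median of the fibroblast list above the lesion turned from -0.49 to 0.039 with genes of a mean of at least 10, which leaves fewer genes. With combined values, no replicate could be left out. No paired analysis was possible because the table holds 1 value per group and no library values. Depth of single libraries, and so the precision of each ratio, cannot be read from the table.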
